A study of Mus musculus with 4 samples.

Results

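The S phase and mitosis genes are 40 genes, 15 for DNA replication and 25 for mitosis, named from what their proteins do, with earlier results of these data known. Of these, 39 had at least 1 tested probe set in the skin of E14.5 mouse embryos, among 11549 genes tested on the arrays in all. The table used here held no probe set of Ccnb1 alone, and Ccnb1 was not analysed here. The 40 genes had 87 probe sets of 1 gene each, of which 75 were bright enough to be tested.

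By the labels, total RNA of whole dissected skin, epidermis and dermis together, came from 4 embryos of E14.5, 1 embryo per Affymetrix MOE430 2.0 array, though the scanner settings name epidermis alone as the sample. The 2 mutants were KRT14-Cre Ctnnb1(Ex3)fl/+, and the 2 controls were littermates whose genotype the labels do not spell out. KRT14-Cre is a Cre recombinase driven by a keratin 14 promoter, active in basal keratinocytes of the surface epithelium. The floxed allele loses exon 3 of Ctnnb1 on recombination, which leaves a beta-catenin protein that escapes degradation, while the other allele stays normal. The comparison asks how skin RNA differs where beta-catenin is stabilised in the epithelium. The dermis, vessels, nerves and blood cells, where this promoter is not known to act, were part of the RNA measured. Nothing in the labels says more of how the embryos were chosen, so p-values measure the spread between these 4 samples.

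A dividing cell first loads the Mcm2-7 helicase onto replication origins with the help of Cdc6 and Cdt1, a step called licensing, which geminin (Gmnn) blocks by binding Cdt1. DNA is then copied with the sliding clamp Pcna and with nucleotides made by ribonucleotide reductase and thymidylate synthase. Mitosis is driven by Cdk1 with its cyclins, watched by the spindle checkpoint, and ended when the anaphase promoting complex with Cdc20 marks cyclins and securin for destruction. The RNAs of the replication genes peak around the start of S phase under E2F factors. Those of many mitotic genes peak in G2 and mitosis, through a promoter element called the cell cycle genes homology region, CHR, and through CCAAT boxes bound by NF-Y. In embryonic skin the dividing cells include basal keratinocytes as well as cells of the dermis.

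The promoters of the members show this division in their letters. Windows of 300 bases, from 250 bases before to 50 bases after the annotated start of each gene, were taken from RefSeq (build GRCm38.p6), where 32 of the 40 members matched. On both strands they were searched for CCAAT, for the CHR words TTTGAA and TTCGAA, and for the E2F words TTTCCCGC and TTTGGCGC. A CHR word was in 15 of the 20 windows of mitosis genes (75.0%), in 2 of the 12 of replication genes (16.7%) and in 19.2% of all 32851 promoter windows. A CCAAT box was in 17 mitosis windows (85.0%) and 8 replication windows (66.7%), against 37.4% of all. An E2F word was in 0 mitosis windows and in 6 of the 12 replication windows, against 1.56% of all. Of the mitosis windows, 15 held CCAAT and CHR together, which 7.52% of all windows did. Such a match is a match of letters and does not show that a factor binds.

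The windows of 4 mitosis genes are printed first, those of Cdc20, Plk1, Kif11 and Ube2c, because each holds the pair of CCAAT and CHR near its start. Those of 2 replication genes follow, Cdt1 and Mcm5, which hold an E2F word and no CHR word. On the probe sets used, Cdt1 had the lowest and Mcm5 the highest log2 change among the replication genes. Each window is written 5′ to 3′ in the direction of its gene, and capitals mark the words found, on either strand.
Cdc20: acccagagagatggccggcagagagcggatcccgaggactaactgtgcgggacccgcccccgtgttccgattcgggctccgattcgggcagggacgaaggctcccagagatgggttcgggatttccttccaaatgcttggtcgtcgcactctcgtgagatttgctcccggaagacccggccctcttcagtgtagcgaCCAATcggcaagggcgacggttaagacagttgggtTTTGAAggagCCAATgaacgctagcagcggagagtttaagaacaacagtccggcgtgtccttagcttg
Plk1: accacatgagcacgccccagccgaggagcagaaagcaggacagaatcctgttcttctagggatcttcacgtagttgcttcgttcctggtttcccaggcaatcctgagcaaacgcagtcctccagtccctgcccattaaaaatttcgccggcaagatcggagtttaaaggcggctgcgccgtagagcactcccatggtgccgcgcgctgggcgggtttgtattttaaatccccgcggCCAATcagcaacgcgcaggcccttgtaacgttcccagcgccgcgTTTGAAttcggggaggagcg
Kif11: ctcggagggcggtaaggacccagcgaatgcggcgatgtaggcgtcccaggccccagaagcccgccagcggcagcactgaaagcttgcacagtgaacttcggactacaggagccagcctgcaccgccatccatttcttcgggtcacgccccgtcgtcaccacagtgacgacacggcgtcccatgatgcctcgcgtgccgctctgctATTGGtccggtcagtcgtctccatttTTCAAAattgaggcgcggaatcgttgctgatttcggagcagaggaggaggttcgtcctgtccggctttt
Ube2c: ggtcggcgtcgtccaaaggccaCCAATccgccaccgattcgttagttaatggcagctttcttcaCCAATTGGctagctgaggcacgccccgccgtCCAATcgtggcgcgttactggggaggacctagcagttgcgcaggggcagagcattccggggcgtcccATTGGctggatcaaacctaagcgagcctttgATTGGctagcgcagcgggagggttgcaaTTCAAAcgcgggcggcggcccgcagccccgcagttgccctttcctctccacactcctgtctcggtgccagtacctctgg
Cdt1: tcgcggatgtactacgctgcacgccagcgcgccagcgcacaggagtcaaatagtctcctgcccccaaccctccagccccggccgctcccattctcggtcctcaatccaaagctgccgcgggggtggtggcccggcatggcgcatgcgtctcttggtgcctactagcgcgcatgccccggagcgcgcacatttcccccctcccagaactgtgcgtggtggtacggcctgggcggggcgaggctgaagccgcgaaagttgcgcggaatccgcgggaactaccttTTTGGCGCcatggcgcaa
Mcm5: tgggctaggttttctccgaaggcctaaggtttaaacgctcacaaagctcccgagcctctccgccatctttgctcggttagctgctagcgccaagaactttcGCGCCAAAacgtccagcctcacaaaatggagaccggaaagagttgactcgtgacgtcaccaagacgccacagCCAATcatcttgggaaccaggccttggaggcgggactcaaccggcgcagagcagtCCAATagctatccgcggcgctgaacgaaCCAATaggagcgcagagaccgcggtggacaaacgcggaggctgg

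The Cdc20 window is chr4:118437294-118437593 on the minus strand, with its CHR word TTTGAA beginning at base -18, between CCAAT boxes at -53 and -8, where base 1 is the annotated start and positions before it are negative. The Plk1 window is chr7:122159185-122159484 on the plus strand, with CCAAT at -14 and TTTGAA at 31, inside the transcribed part. The Kif11 window is chr19:37376132-37376431 on the plus strand, with both words on the opposite strand, CCAAT at -45 and TTTGAA at -19. Ube2c, at chr2:164769679-164769978 on the plus strand, had 6 CCAAT boxes, the most of these windows, with those at -186 and -183 on opposite strands sharing letters, and TTTGAA at -29 on the opposite strand. Cdt1, at chr8:122567765-122568064 on the plus strand, held TTTGGCGC at 33 and no other word. Mcm5, at chr8:75109259-75109558 on the plus strand, held TTTGGCGC at -149 on the opposite strand and 3 CCAAT boxes.

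The 4 arrays had median signals of 27.7 to 31.95 and mean signals of 219 to 227, in the arbitrary intensity units of the scanner. All differences between groups are therefore relative to the whole signal of an array. The 12 probe sets of the poly-A spikes, bacterial RNAs that can be added during labelling, were lower in the mutants by a mean log2 difference of -1.15, and the amount added to each sample is not given in the sources used here. Set against these spikes in place of the array signal, every log2 change below would be higher by 1.15, and each change below 0 among the members would lie above 0. The 3 probe sets of 18S ribosomal RNA, which the samples themselves supply, were lower in the mutants as well, by a mean log2 difference of -1.05. The part of these gaps in the results was not tested. The 9 hybridization spike probe sets, with a mean log2 difference of 0.07, show no such gap. Keratinocyte and dermal markers were both present: Krt5 read 1256 to 2844 and Col3a1, a collagen gene of the dermis, lay between 7229 and 9491.

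Most S phase and mitosis genes read slightly lower in mutant skin. The log2 change, mutant minus control, lay below 0 for 37 of the 39 measured members, with a median of -0.26. For comparison, 53.1% of all tested genes lay below 0, with a median of -0.02. Both mutants were below both controls for 29 members, against 30.4% of all genes, the groups overlapped for 10, and both mutants were above both controls for 0, against 26.3% of all genes. Only Cdc20 passed the test in the fit over all probe sets (adjusted p at most 0.05), where 3.78% of all genes fell and 4.96% rose, and 0 members rose. At an unadjusted limma p under 0.05, 19 members were lower and 0 higher, where 12.7% and 13.1% of all genes were. Of the 39, 37 have a mean signal of 250 or more, a bound chosen after their values were seen. Among the 5310 genes that bright, 57.5% lay below 0, 33.5% had both mutants below both controls, and the median log2 change was -0.04.

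**Figure D1:**
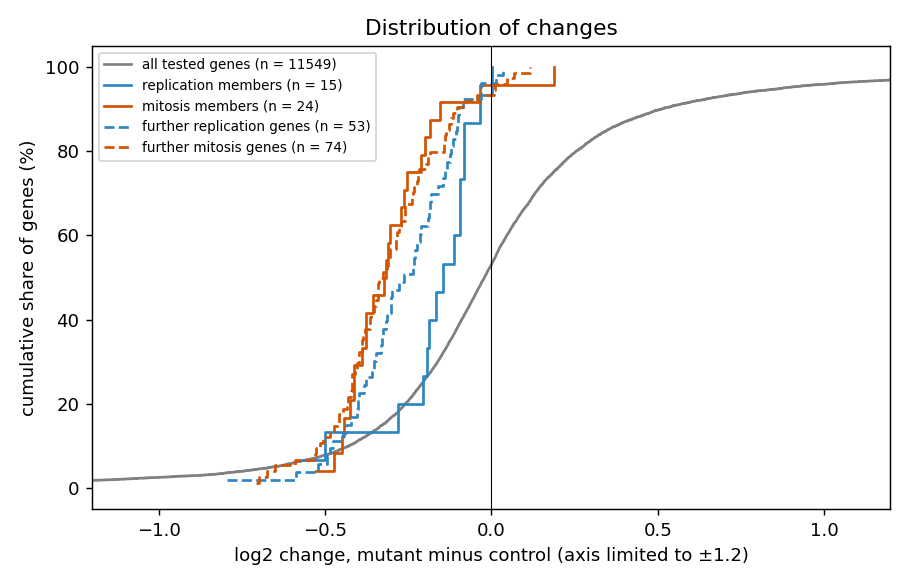
Cumulative share of genes (percent, y axis) by log2 change, mutant minus control (x axis, limited to 1.2 either way), for all 11549 tested genes, the 15 replication members, the 24 measured mitosis members and further replication and mitosis genes. The median of the mitosis members, -0.32, lies to the left of that of all genes, -0.02, and that of the replication members, -0.15, lies between them.

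Among the 24 measured mitosis genes the median log2 change was -0.32, which is 80.2% of the control level on the scale of the fit. Both mutants were below both controls for 22 of them, 23 had a log2 change below 0, and 17 had a 95% interval wholly below 0. Among the 15 replication genes the median was -0.15, or 90.4% of the control level. Both mutants were below both controls for 7 of those, 14 had a log2 change below 0 and 2 had an interval wholly below 0. Over all tested genes, 30.4% had both mutants below both controls and 53.1% lay below 0. At an unadjusted limma p under 0.05, which matches an interval wholly below 0, 12.7% of all genes were lower. Array by array, the median difference of the mitosis genes from the control mean was -0.04 and 0.04 in the controls, -0.40 in mutant 1 and -0.24 in mutant 2. For the replication genes it was 0.03 and -0.03 in the controls, -0.19 in mutant 1 and -0.12 in mutant 2. Mutant 1 read below mutant 2 for 21 of the 24 mitosis genes and 10 of the 15 replication genes. The difference between these gene groups was not tested, since genes of one array are not replicates, and in the longer lists given further on the medians lay closer together, at -0.33 for mitosis and -0.26 for replication.

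**Figure D2:**
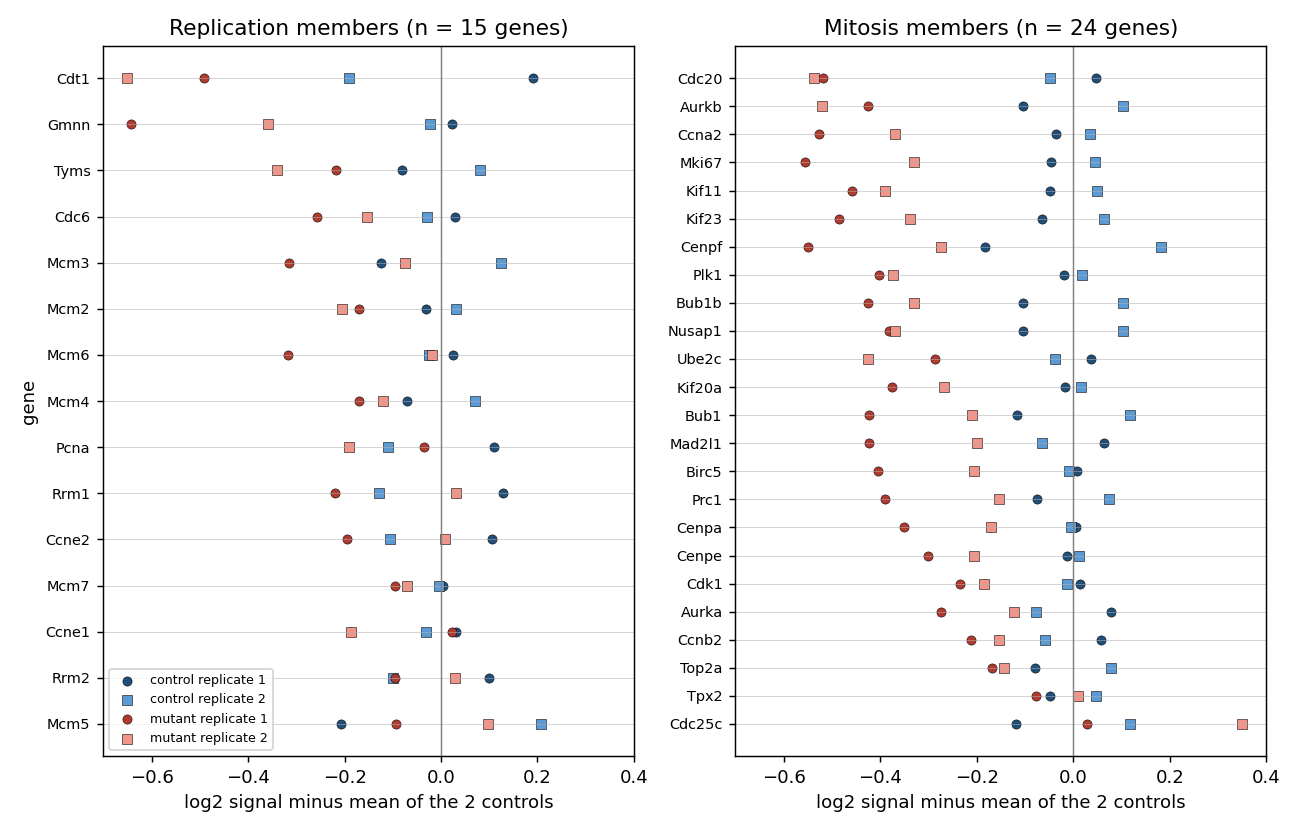
Difference of each array's log2 signal from the mean of the 2 controls (x axis) for each measured member (y axis), replication genes at left and mitosis genes at right, with 1 point per array. For 22 of the 24 mitosis genes both mutant points lie to the left of both control points, which holds for 7 of the 15 replication genes.

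Of the licensing genes, the pair that sets whether an origin may be loaded was lowest. Cdt1, the loading factor of the helicase, read 1114 and 853 in the controls and 692 and 618 in the mutants. Its log2 change was -0.57 (SE 0.15, 95% interval -0.93 to -0.21), and with an adjusted p of 0.0760 it did not pass. The other tested Cdt1 probe set read 383 and 420 in the controls and 359 and 278 in the mutants, a log2 change of -0.34 (adjusted p = 0.244). Geminin, its inhibitor, read 985.5 and 955 in the controls against 619 and 755 in the mutants, a log2 change of -0.50 (SE 0.13) with an adjusted p of 0.0661. In both genes both mutants were below both controls, against 30.4% of all tested genes. On the probe sets used, the mutant means were 66.6% and 70.8% of the control means. The helicase itself moved less: Mcm2, Mcm3, Mcm4, Mcm5, Mcm6 and Mcm7 had log2 changes between -0.19 and 0.00, or 87.3% to 99.3% of the control mean, with adjusted p-values of 0.321 to 0.996.

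Within the helicase, Mcm2 read 831 and 869 in the controls and 754 and 736 in the mutants, a log2 change of -0.19 (SE 0.10). Mcm3 read 1209.9 and 1441 in the controls and 1060.1 and 1254 in the mutants, a log2 change of -0.19 (SE 0.13) with overlapping groups. Mcm4 and Mcm7 had both mutants below both controls, by 0.15 and 0.08 on the log2 scale, while in Mcm5 and Mcm6 the groups overlapped. Mcm5 was the replication gene with the highest value, at 0.00 (95% interval -0.37 to 0.38), but its controls, 1840.3 and 2455, spread more than its groups differed. Cdc6, the other loading factor, read 341 and 326 against 278 and 299, a log2 change of -0.21 (SE 0.12, adjusted p = 0.352).

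The replication genes that act after licensing had log2 changes between -0.28 and -0.03 on the probe sets used. Pcna, the sliding clamp, read 5262 and 4520.0 in the controls and 4758 and 4272 in the mutants, a log2 change of -0.11 (95% interval -0.41 to 0.18), and its groups overlapped. The large and small subunits of ribonucleotide reductase, Rrm1 and Rrm2, had log2 changes of -0.09 and -0.03 with overlapping groups. Thymidylate synthase, Tyms, was read on a dim probe set at 42.2 and 48.1 in the controls and 37.7 and 34.0 in the mutants, a log2 change of -0.28 (SE 0.21, adjusted p = 0.478). Its other tested probe set, also dim, gave -0.82 (adjusted p = 0.0660), so the size of its change is uncertain. A brighter Tyms probe set is listed for a pseudogene as well and was not used here. The E cyclins, which with Cdk2 start S phase, had log2 changes of -0.08 (Ccne1) and -0.09 (Ccne2), and the groups overlapped in both. The other tested Ccne1 probe set read 231.5 and 229 in the controls and 184 and 176 in the mutants, a log2 change of -0.34 (adjusted p = 0.165) with the groups apart.

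Among the mitosis genes, those that end mitosis through the anaphase promoting complex were lowest, with a median of -0.44 over 2 genes. Cdc20, the activator of that complex and the target of the spindle checkpoint, read 2445 and 2288 in the controls and 1648 and 1628 in the mutants. It fell by 0.53 on the log2 scale (SE 0.10, 95% interval -0.76 to -0.29, adjusted p = 0.0278), to 69.2% of the control mean. The adjusted p rose above the threshold in each of the 4 fits that left out 1 array, where it lay between 0.0549 and 0.133 and the log2 change between -0.58 and -0.48. Its other probe sets gave -0.38 (adjusted p = 0.0752) and -0.13, the last of them dim. Ube2c, the ubiquitin-conjugating enzyme of the complex, read 1871 and 1778 against 1494 and 1356, a log2 change of -0.36 (adjusted p = 0.101).

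Of the cyclins and their kinase, cyclin A2 differed most. Ccna2, which partners Cdk2 in S phase and Cdk1 in G2, read 1487 and 1562 in the controls and 1055.5 and 1177 in the mutants, a log2 change of -0.45 (SE 0.11, adjusted p = 0.0563). The mitotic kinase Cdk1 read 1959 and 1923 against 1647 and 1705, a log2 change of -0.21 (adjusted p = 0.255), and cyclin B2, Ccnb2, had a log2 change of -0.18 (adjusted p = 0.345). In all 3 of these genes both mutants were below both controls, against 30.4% of all tested genes. Cdc25c, the phosphatase that activates Cdk1, was dim and the only mitosis gene above 0, at 0.19 (95% interval -0.25 to 0.63) with overlapping groups, while its other tested probe set gave -0.36.

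The spindle checkpoint, which holds back Cdc20 until every chromosome is attached, was lower in each of its 3 genes without any of them passing on the probe set used. Bub1b, which encodes BubR1, read 529 and 612 against 422 and 451, a log2 change of -0.38 (adjusted p = 0.123). A further Bub1b probe set read 585.5 and 528 against 377 and 382 and fell by 0.54 on the log2 scale (adjusted p = 0.0374). The kinase Bub1 had a log2 change of -0.32 (adjusted p = 0.213), and Mad2l1, the Mad2 protein that binds Cdc20, one of -0.31 (adjusted p = 0.183).

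The mitotic kinases and Birc5, a gene of the chromosomal passenger complex, showed log2 changes of -0.47 to -0.20. Both mutants were below both controls in each of these 4 genes, against 30.4% of all tested genes. Aurkb, the kinase of the chromosomal passenger complex, read 465 and 539 in the controls and 371 and 347 in the mutants, a log2 change of -0.47 (SE 0.12, adjusted p = 0.0733). Its partner survivin, Birc5, read 1759 and 1739.5 against 1319.6 and 1515.5, a log2 change of -0.31 (adjusted p = 0.161). Plk1, the polo kinase whose promoter window is printed above, read 533 and 547 against 406 and 415, a log2 change of -0.39 (adjusted p = 0.0801). Aurka, the kinase of the spindle poles, had the smallest difference of the 4, at -0.20 (adjusted p = 0.370).

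Spindle and cytokinesis genes had a median log2 change of -0.35 over 6 genes. Kif11, the kinesin that pushes spindle poles apart, read 455 and 487 in the controls and 341 and 358 in the mutants, a log2 change of -0.42 (SE 0.11, adjusted p = 0.0758). Kif23, a kinesin of the central spindle, read 594 and 651 against 442 and 490.0, a log2 change of -0.41 (SE 0.12, adjusted p = 0.0886). The mutants were below the controls on every array in both kinesins, as in 30.4% of all tested genes. That also held for Nusap1 (-0.38), Kif20a (-0.32) and Prc1 (-0.27), which organise or bundle spindle microtubules. A further Prc1 probe set gave -0.01 (adjusted p = 0.976) with overlapping groups. On the probe sets used, Tpx2, the activator of Aurora A on the spindle, stood apart from these genes at -0.03 (95% interval -0.28 to 0.22). The groups of Tpx2 overlapped on that probe set. A further Tpx2 probe set read 293 and 320 in the controls and 231 and 292 in the mutants, with the groups apart. Its log2 change was -0.23 (adjusted p = 0.411). The remaining Tpx2 probe sets, both dim, gave -0.43 and 0.16.

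At the centromere, log2 changes were -0.26 for the histone variant Cenpa, -0.25 for the kinesin Cenpe and -0.41 for the kinetochore protein Cenpf. In each, both mutants were below both controls, against 30.4% of all tested genes, with adjusted p-values of 0.188 to 0.218. A further Cenpe probe set gave -0.02 (adjusted p = 0.952) with overlapping groups. Mki67, the chromosome surface protein known as the proliferation marker Ki-67, read 2102 and 2239 in the controls and 1474 and 1725 in the mutants. Its log2 change was -0.44 (SE 0.12, adjusted p = 0.0762), or 73.7% of the control mean. Top2a, the topoisomerase that untangles sister chromatids, differed less, with 2341 and 2611 against 2201 and 2237, a log2 change of -0.16 (adjusted p = 0.437). A dim Top2a probe set gave -0.65 (adjusted p = 0.0686).

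**Figure D3:**
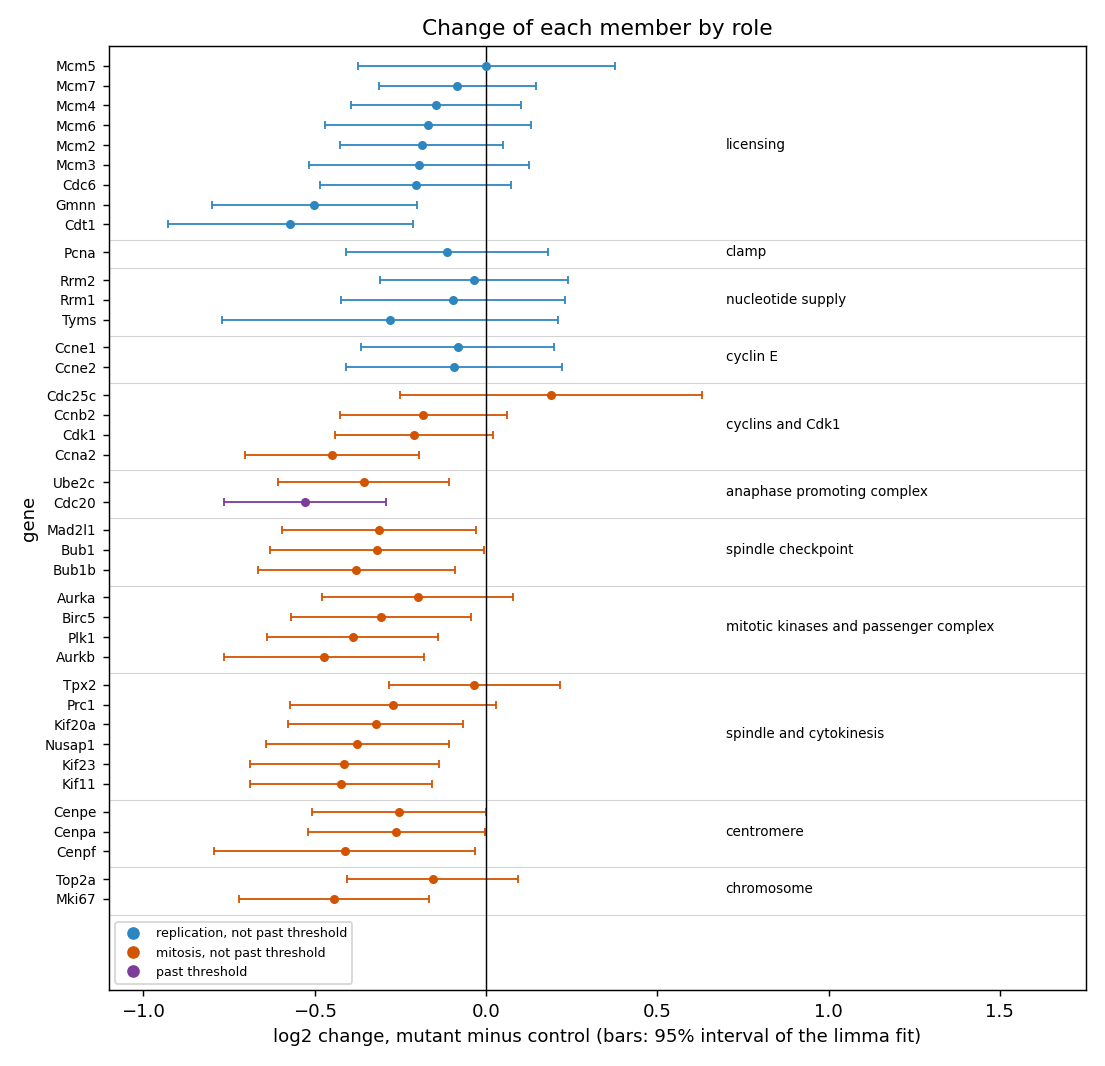
Log2 change, mutant minus control (x axis), of each measured member (y axis), grouped by role, with bars for the 95% interval of the limma fit. Cdc20 alone is past the threshold, and the widest intervals belong to the dim Tyms and Cdc25c probe sets and to Mcm5 and Cenpf.

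Counted by probe set rather than by gene, the picture was similar. Of the 43 tested mitosis probe sets, 41 lay below 0, 35 had both mutants below both controls, against 27.7% of all 22519 probe sets, and 1 had both mutants above both controls, against 26.6%. Of these, 2 fell, those of Cdc20 and Bub1b, and 0 rose, where 2.93% of all probe sets fell and 4.1% rose. Of the 32 replication probe sets, 28 lay below 0, 15 had both mutants below both controls and 0 fell. The medians were -0.36 and -0.15. Of the 25 members with several tested probe sets, 5 had probe sets of opposite sign: Mcm4, Mcm5, Rrm2, Cdc25c and Tpx2. On the probe sets used and the offset scale, the 95% intervals of the 39 genes reached no lower than -0.93, while the other Tyms probe set, at -0.82 on that scale, read 50.4 and 49.2 in the controls and 24.4 and 25.4 in the mutants. In the authors' deposited table of 170 changed probe sets, all at least 2-fold, 0 belonged to the members.

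Changes of the mitosis genes are given here by whether their promoter window held a CHR word, without a test of the difference. The 15 measured genes with one had a median log2 change of -0.36, from -0.53 to -0.16. The 4 measured genes without one in the window, Birc5, Cenpe, Mad2l1 and Nusap1, had a median of -0.31, from -0.38 to -0.25. Of the 6 replication genes with an E2F word, Cdt1 and Mcm5 stood at the ends of the replication genes on the probe sets used. The others, Cdc6, Mcm3, Mcm6 and Mcm7, had log2 changes of -0.21, -0.19, -0.17 and -0.08. Replication genes whose window held no E2F word were Ccne1, Mcm2, Pcna, Rrm1, Rrm2 and Tyms. Their log2 changes ran from -0.28 to -0.03, and this difference was not tested either.

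Further genes of the same processes, written from general knowledge and not among the 40, mostly lay below 0 too. Over all tested genes 53.1% lay below 0, 30.4% had both mutants below both controls and 3.78% fell, so the shares that fell in these lists are not far from that of all genes. Of 56 further replication genes 53 were measured, 51 lay below 0, 40 had both mutants below both controls and 3 fell, with a median of -0.26. The origin-firing kinase Cdc7 read 592 and 556 in the controls and 327 and 328 in the mutants, and fell by 0.80 on the log2 scale (SE 0.11, adjusted p = 0.00909), a call that held in each of 13 alternative settings. Dna2, a nuclease of lagging strand processing, read 364 and 361 against 225 and 253 and fell by 0.59 (adjusted p = 0.0374). Lig1, the ligase that joins lagging strand pieces, read 954 and 1008 against 676 and 731 and fell by 0.48 (adjusted p = 0.0455).

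Of 77 further mitosis genes 74 were measured, 69 lay below 0, 61 had both mutants below both controls, and 5 fell, with a median of -0.33, against 53.1%, 30.4% and 3.78% of all genes. The separase gene Espl1, whose protease opens cohesin, read 319 and 309 in the controls and 197 and 197 in the mutants and fell by 0.65 (adjusted p = 0.0249). The checkpoint kinase Ttk, also called Mps1, read 479.9 and 541 against 340.4 and 294 and fell by 0.68 (adjusted p = 0.0297). Racgap1, the Kif23 partner in the central spindle, read 649 and 696 against 459 and 469 and fell by 0.53 (adjusted p = 0.0337). Foxm1, the transcription factor of G2 and mitosis genes, read 157 and 152 against 97.3 and 87.0 and fell by 0.70 (adjusted p = 0.0426), and the mitotic kinase gene Pbk read 1172 and 1139.9 against 783 and 867 and fell by 0.48 (adjusted p = 0.0435). The groups were apart in all 8 of these replication and mitosis genes. On leaving out 1 array, the calls of Dna2, Lig1, Foxm1 and Pbk were lost in each of the 4 fits (adjusted p of 0.0559 to 0.227). That of Racgap1 was lost without control 2 and without either mutant (0.0935 to 0.143), that of Ttk without control 2 and without mutant 2 (0.0805 and 0.125), and that of Espl1 without either mutant (0.0991 and 0.0998).

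The genes that lead into S phase were mixed. Of 23 G1 regulators, 17 lay below 0, 3 fell and 0 rose, with a median of -0.19. Both mutants were below both controls for 15 and above both for 5. At an unadjusted limma p under 0.05, 9 were lower and 2 higher. Over all tested genes, 53.1% lay below 0, 3.78% fell and 4.96% rose. Both mutants were below both controls for 30.4% of all genes and above both for 26.3%. At the unadjusted p, 12.7% of all genes were lower and 13.1% higher. E2f8, an E2F factor that represses S phase genes, read 254 and 231 in the controls and 133 and 127 in the mutants and fell by 0.86 (SE 0.13, adjusted p = 0.0151). Its relative E2f7 read 342 and 373 against 248 and 237 and fell by 0.54 (adjusted p = 0.0449). The G1 kinase Cdk6 read 302 and 374 against 186 and 199 and fell by 0.78 (adjusted p = 0.0276). The call of E2f8 was lost without mutant 2 (adjusted p = 0.0610), and those of E2f7 and Cdk6 without control 2 and without either mutant (0.0587 to 0.193). Of 6 measured Cdk inhibitors 2 rose: Cdkn1a, which encodes p21, read 485 and 549 in the controls and 1221 and 1489 in the mutants and rose by 1.37 on the log2 scale (SE 0.13, adjusted p = 0.00264). Cdkn2b, p15, read 28.1 and 37.3 against 107 and 92.3 and rose by 1.42 (adjusted p = 0.0120, and 0.0519 without mutant 1).

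The cell types that make up the skin sample differed between the groups, and in whole skin fewer dividing cells and less RNA per dividing cell cannot be told apart. Of 10 markers of basal keratinocytes, the dividing layer of the epidermis, 4 fell, with a median log2 change of -0.81, and their summed signal was 11555 and 16347 in the controls and 5929 and 7879 in the mutants. Of 8 measured suprabasal markers 6 fell, with summed signals of 13957 and 19871 against 3473 and 4149. Of 9 dermal fibroblast markers 3 fell, with sums of 40085 and 35404 against 31562 and 27761. Over all tested genes 3.78% fell. Of the mutants, mutant 1 had the lower basal and suprabasal sums and the higher fibroblast sum. The part of these cell types in the result was not tested.

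Other markers moved as well, where 3.78% of all tested genes fell and 4.96% rose. Skeletal muscle markers summed to 12433 and 9026 in the controls and 7047 and 4147 in the mutants, with 2 of 8 called lower, and those of nerve and Schwann cells to 491 and 599 against 228 and 254, with 1 of 3 called lower. Macrophage markers rose in 5 of 8 genes, with sums of 3398 and 2672 against 4725 and 5524, and melanocyte markers in 3 of 5, with sums of 550.1 and 572 against 1061 and 1638. One of 6 endothelial markers rose, and none of 5 measured erythroid markers passed in either direction. The 8 measured hair shaft genes summed to 84.2 and 51.3 in the controls and 18601 and 14138 in the mutants. Their control means, 3.92 to 15.5, lay below the filter of 31.1. They entered the test through the mutants only, so their calls are not counted here. Among the melanocyte markers called higher, Mlana, with a control mean of 17.5, entered the same way. Cartilage markers set 1 array apart: their sum was 384 and 239 in the controls, 868 in mutant 2 and 11176 in mutant 1, with 1 of 11 called higher. Without mutant 1, the median log2 change of the mitosis genes was -0.24 and that of the replication genes -0.12. No marker was listed at 0, and the part of these cell types in the result was not tested.

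**Figure D4:**
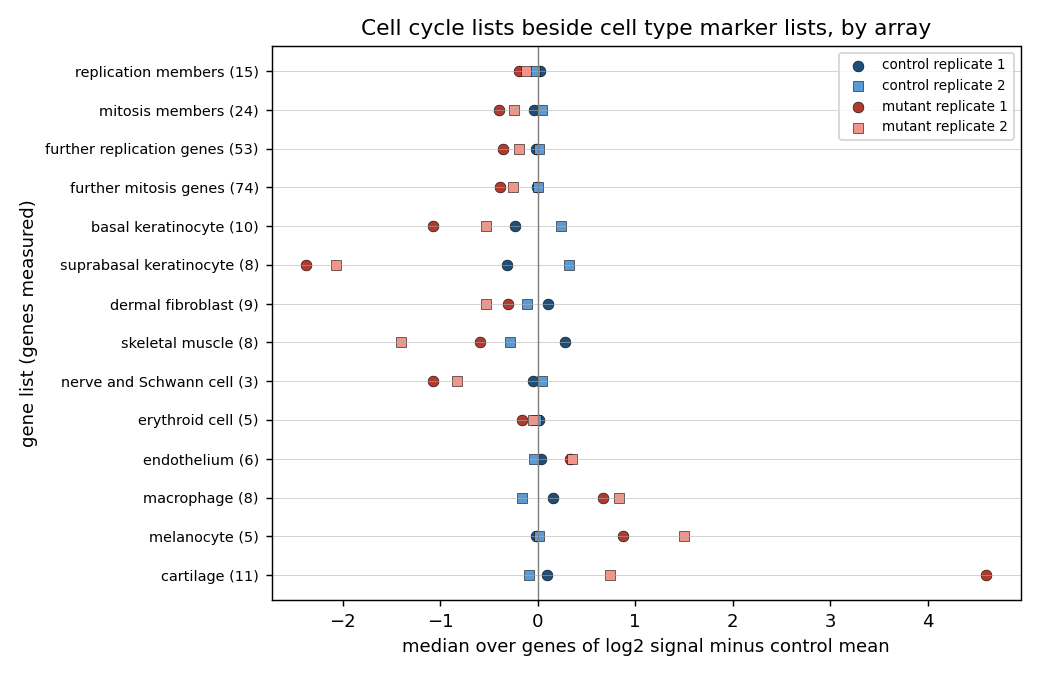
Median over the genes of a list of the log2 signal minus the control mean (x axis), for the cell cycle lists and the cell type marker lists (y axis, genes measured in brackets), with 1 point per array. The mitosis members lie at -0.40 and -0.24 in the mutants, nearer to 0 than the basal keratinocyte markers at -1.07 and -0.53, and the cartilage markers of mutant 1 lie far to the right at 4.60.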

How the data were processed

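Total RNA of whole skin was measured on 4 arrays, 2 per group. The deposited intensity values, 1 signal per probe set and array on a linear scale, were the authors' output of GCOS and MAS5, per the submitters' processing notes; versions and the scaling target are not given in the sources used here. Array medians ran from 27.7 to 31.95 and array means from 219 to 227, and no further normalization was applied in the fit reported. The other deposited table gives the authors' fold changes as a ratio of mutant over control for 170 probe sets that, per the file headers, were Present in at least 2 of 4 arrays, had p under 0.01 without correction and changed at least 2-fold on GCRMA values. The scanner settings files hold no measurements and were read only for array details.

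Tests used log2(signal + 7.72), with percentile 25 of the values as offset, which shrinks the changes of dim genes. The 22519 probe sets with a mean signal at or above 31.1, the median over probe sets, were tested in R 4.3.3 with limma 3.58.1 (two-sided, with a variance trend), with Benjamini-Hochberg adjustment over all of them and a threshold of 0.05; the steps were checked on simulated data. A gene dim in only 1 group can pass this filter through the other. A single-gene exact permutation test over 2 against 2 arrays could not go below a two-sided p of 0.333. Of 45037 probe sets besides 64 controls, 34945 matched 1 gene, 932 several and 9160 none, by the platform's table with symbols updated from a RefSeq gene table. A gene is represented by its probe set of highest mean signal. The members and lists were chosen with earlier results of these data known. Genes given with every array are those past the threshold, the 6 replication and the 6 mitosis members with the largest log2 change, and from each further list up to 6 genes that passed; further members were added by role. The same-numbered arrays of the groups shared deviations from the group means with a correlation of 0.155 over 2 pairs, too few to take the numbers as pairs. The number of arrays limits the precision. Alternatives were the offset, filter, normalization, variance model, replicate block, probe set choice and leaving out each array.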

Additional observations from a re-analysis of the deposited data

How the results depend on the processing

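On leaving out 1 array, the lone sample of its group is assumed to vary like the other group. The count of members that fell was 1 in the fit reported. It was 0 with no filter and with no variance trend. Without probe sets that can match several transcripts, where only 31 members remained, it was 0 as well. With quantile normalization and with a robust trend it was 2. It was also 2 where each gene took the lowest adjusted p of its probe sets, which is not a test of their mean. There Bub1b was counted through its further probe set. The call of Cdc20 was lost without each of the 4 arrays; without control 1 the 1 member that passed was Aurkb, and without control 2 it was Cdt1. The count of members that rose was 0 under every alternative run. With the replicate number as a block, 6 members fell, Cdc20, Ccna2, Cdt1, Gmnn, Mki67 and Ube2c; the labels do not say that the numbers pair embryos. The median log2 change of the replication genes was -0.15, -0.18 with arrays centred on their median, and -0.19 to -0.12 on leaving out 1 array; that of the mitosis genes was -0.32, and -0.40 to -0.24 on leaving out 1 array, the ends being without mutant 2 and without mutant 1. The count over all probe sets was 1583, 880 with no filter, 2441 with the replicate block and 982 to 2171 on leaving out 1 array, lowest without mutant 1 (982) and mutant 2 (1008). Among the further genes the count was 13, 5 with no filter, 6 with no variance trend, 27 with the replicate block and 4 to 12 on leaving out 1 array, with 6 without control 2 and 4 without either mutant. The cause of these shifts was not tested. Members near 0 changed sign, none of them past the threshold. Mcm5 went to -0.0293 with median centring, -0.0827 with the mean over probe sets and -0.167 without probe sets that can match several transcripts, and ran from -0.205 to 0.209 on leaving out 1 array. Rrm2 went to 0.0666 with the mean and 0.117 without those probe sets, and ran from -0.133 to 0.0656, while Cdc25c went to -0.0841 with the mean. On leaving out 1 array, Rrm1 ran from -0.223 to 0.0335, Ccne1 from -0.187 to 0.0228, Ccne2 from -0.199 to 0.0135 and Tpx2 from -0.0802 to 0.0140.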
